A study of Mus musculus with 35 samples.

Results

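Pancreatic lymph nodes of female NOD/LtJ mice at 4 weeks of age were compared with pooled pancreatic lymph nodes of NOD.B10Sn-H2b/J mice (NOD.B10) on 6 two-colour arrays, those labelled as the 4-week group among the 35 arrays of the series. NOD is an inbred strain that develops autoimmune diabetes, and NOD.B10 carries a different major histocompatibility complex (MHC) on the NOD background and was the control strain. On every array the NOD RNA carried Cy3 and the control RNA Cy5, with no dye swap, so a dye bias of a probe stays in its ratio. The other 29 arrays held NOD nodes of 10 days (n = 7) or of 8 (n = 4), 12 (n = 7), 16 (n = 6) and 20 weeks (n = 5) against the same kind of control. The study describes control RNA from 2 groups of 10 NOD.B10 mice each, 10 days and 20 weeks old, and no group of 4 weeks. Which of these was on the 4-week arrays is not stated in the labels, so strain and age of the control cannot be told apart in these ratios. The labels call the NOD channel diabetic and the other channel control. The control RNA was treated as a single sample (n = 1), and its variation does not enter the tests. Nothing states that the 6 arrays came from separate animals, so every p-value reflects only how far the arrays scattered, possibly for technical reasons.

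Each value is the log2 of the processed NOD signal divided by that of the control, and a positive value is higher in NOD. A gene is called higher or lower where its mean ratio over the 6 arrays reached 1 in size with an adjusted p under 0.05 (limma, Benjamini-Hochberg over all 28497 genes tested). By this rule 2796 genes (9.81%) were called, 989 of them higher (3.47%) and 1807 lower (6.34%). With no limit on size 12063 genes passed (42.3%). Both channels stood well above background and unsaturated on all 6 arrays for 11403 genes, called measured genes here, and 1471 of these (12.9%) were called, 419 higher (3.67%) and 1052 lower (9.23%). The median ratio was -0.0082 over all genes and -0.071 over the measured ones, and the median SD of a measured gene over the arrays was 0.34. Normexp background correction (offset 50) with loess left 534 genes called, and for each gene named below whose call was lost under it this is stated. The size limit stayed at 1 there, so a call could be lost on size alone. Zc3h6 (0.74, limma adjusted p = 5.5e-06) and Rhou (0.96, limma adjusted p = 0.00021) were lost in this way. The part of the offset in the lost calls was not tested. The share of probes well above background was 69.0% to 85.9% in the NOD channel and 42.4% to 49.5% in the control channel, where 12100 genes reached that level on none of the 6 arrays. The 6 arrays correlated with each other at r = 0.18 to 0.56 across probes, which are not independent, with the lowest mean correlation (0.24) for replicate 5. All 6 were read on 1 scan day that holds no other age, and with a scanner that otherwise read 1 array, of 8 weeks, so age and scan day cannot be told apart.

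The MHC lies on chromosome 17 of the mouse and encodes the class I and class II molecules that show peptides to T cells. NOD carries the g7 haplotype and NOD.B10 the b haplotype, so the strains differ in the sequence of these genes and their neighbours. Whether a probe matches the NOD allele of a gene in this region as well as the control allele was not tested. This applies to every class I, class II and class III ratio below. It also applies to other genes in or beside the region, Tap1, Tap2 and Tapbp among them. Class II genes are expressed mainly by B cells, dendritic cells and macrophages, and their promoters share a block of motifs that includes an X box and, downstream of it, a Y box with the core CCAAT. Class I promoters also hold CCAAT motifs near the start site. The promoters of 3 class II region genes and 2 class I genes whose ratios were low on the 4-week arrays are shown because these genes moved the same way. They are the RefSeq windows of GRCm38.p6 (the C57BL/6J reference, which carries the b haplotype), from 250 bases before to 50 after the start, at chr17:34305617-34305916 (+ strand), chr17:34152941-34153240 (+), chr17:34238655-34238954 (+), chr17:35262844-35263143 (+) and chr17:36032652-36032951 (-). Capitals mark CCAAT or its reverse complement ATTGG, and AGCAAC (an X box core) or its reverse complement GTTGCT.
H2-Eb1: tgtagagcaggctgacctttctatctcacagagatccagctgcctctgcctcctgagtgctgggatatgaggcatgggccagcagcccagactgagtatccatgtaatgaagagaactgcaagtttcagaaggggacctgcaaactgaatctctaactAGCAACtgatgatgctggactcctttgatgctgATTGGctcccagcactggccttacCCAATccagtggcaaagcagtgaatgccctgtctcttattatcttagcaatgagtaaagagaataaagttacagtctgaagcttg
H2-DMb1: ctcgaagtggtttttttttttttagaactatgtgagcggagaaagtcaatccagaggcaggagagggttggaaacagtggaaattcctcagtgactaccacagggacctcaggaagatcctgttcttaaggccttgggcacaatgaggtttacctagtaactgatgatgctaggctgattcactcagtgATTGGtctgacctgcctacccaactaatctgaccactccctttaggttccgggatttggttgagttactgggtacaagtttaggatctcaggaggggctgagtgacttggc
H2-Ob: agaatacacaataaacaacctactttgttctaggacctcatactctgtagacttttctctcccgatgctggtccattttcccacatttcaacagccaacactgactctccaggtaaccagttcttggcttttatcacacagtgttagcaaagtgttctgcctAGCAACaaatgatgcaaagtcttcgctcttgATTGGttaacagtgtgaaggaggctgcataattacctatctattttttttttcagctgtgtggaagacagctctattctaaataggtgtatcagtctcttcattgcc
H2-D1: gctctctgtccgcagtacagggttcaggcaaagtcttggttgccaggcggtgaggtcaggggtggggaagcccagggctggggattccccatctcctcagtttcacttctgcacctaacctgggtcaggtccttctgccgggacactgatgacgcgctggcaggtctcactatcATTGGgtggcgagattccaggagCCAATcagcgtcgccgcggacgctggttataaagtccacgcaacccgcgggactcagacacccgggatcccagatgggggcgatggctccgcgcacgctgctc
H2-T23: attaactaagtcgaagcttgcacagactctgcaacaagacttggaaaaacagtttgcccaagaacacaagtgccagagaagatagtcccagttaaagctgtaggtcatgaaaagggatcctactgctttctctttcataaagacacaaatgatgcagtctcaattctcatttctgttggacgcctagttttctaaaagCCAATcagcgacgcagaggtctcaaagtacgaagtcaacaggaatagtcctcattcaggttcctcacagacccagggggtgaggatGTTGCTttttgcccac
Of the 32851 promoter windows in the table, 37.4% hold CCAAT on either strand, 14.8% AGCAAC and 5.84% both. For 8 class II region genes with an entry there were 9 windows, of which 8 held CCAAT, 4 held AGCAAC and 4 held both. All 7 windows of the 6 class I genes looked up (H2-K1, H2-D1, H2-T23, H2-M2, H2-T22 and H2-Q7) held CCAAT and 1 held AGCAAC. No match of one motif overlapped a match of the other. These are letters in the reference sequence and not binding sites shown by these data. H2-Ab1 and H2-Ea had no entry.

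Class II genes and the chaperones of class II loading were lower in the NOD channel at 4 weeks. Of the 11 genes of this list on the array, 7 were called lower and none higher (median ratio -1.07), where 6.34% of all genes were called lower. Cd74, the invariant chain that guards the class II groove until loading, had ratios from -2.51 to -2.17 with a median of -2.28. All 6 arrays lay within this narrow range, and the mean of -2.32 ± 0.16 (SD, n = 6) was a 5.01-fold lower signal in NOD (limma adjusted p = 3.17e-16). H2-DMb1, a chain of the DM chaperone that exchanges peptides on class II, ran from -2.78 to -2.09 (median -2.18, mean -2.31 ± 0.28, adjusted p = 8.68e-14). Its partner chain H2-DMa had a mean of -1.33 ± 0.20, and the second beta chain gene H2-DMb2 one of -1.07 ± 0.44. H2-Eb1, the beta chain of the E molecule whose promoter is printed above, had a mean of -1.35 ± 0.24 (-1.75 to -1.10). H2-Ob, a chain of the DO inhibitor of DM, had a mean of -1.02 ± 0.36, and the other DO chain H2-Oa one of -0.56 ± 0.36, which did not reach the size limit. H2-DMb2 and H2-Ob lost their calls with normexp and loess (-0.87 and -0.63). H2-DMb2 also lost its call without replicate 2 (-0.96), and H2-Ob without replicate 5 (-0.96) or 6 (-0.91) and with the replicate block (-0.98). Ciita, the master activator of class II transcription, had a mean of -0.34 ± 0.56, with ratios on both sides of 0.

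The class II chains themselves were read by probes that did not always agree. H2-Ab1, the beta chain of the A molecule, was lower on every array with each of its 4 probes, whose means were -2.05, -1.18, -0.86 and -1.23. For H2-Aa, its alpha chain, the brighter probe had a mean of 0.04 ± 0.48 and the second probe -2.85 ± 0.44. The second H2-Aa probe was below -2.4 on all 6 arrays, whereas the brighter one lay on both sides of 0, so these arrays give no single ratio for H2-Aa. The H2-Ea probe, for the alpha chain that neither haplotype is known to express, was well above background on 3 arrays in the NOD channel and on none in the control channel. Over all genes with more than 1 measured probe past the threshold, 7 of 143 had probes of opposite sign. A pair such as that of H2-Aa, with 1 probe not past the threshold, does not enter this count.

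**Figure D1:**
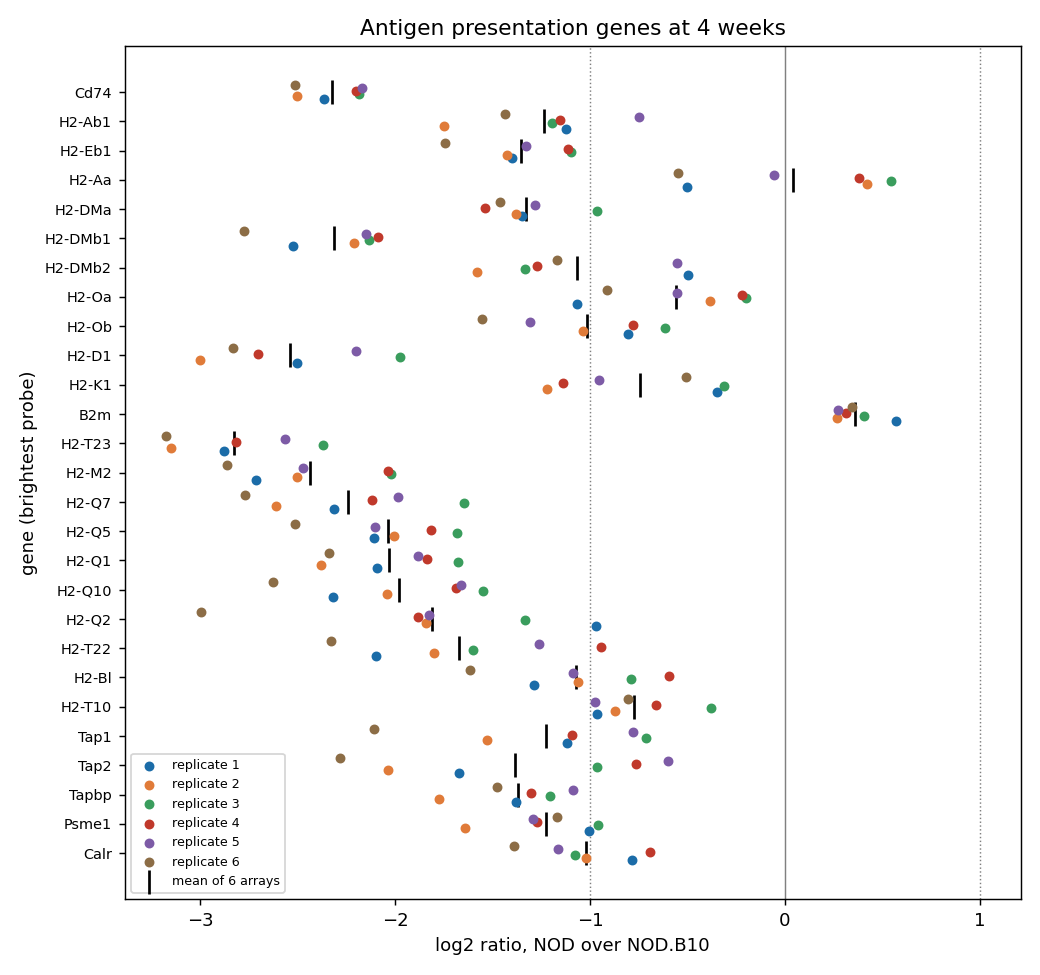
Log2 ratio (NOD over NOD.B10, x axis) of 27 antigen presentation genes on each of the 6 arrays at 4 weeks, with a black bar at the mean and dotted lines at the size limit of -1 and 1. The points of Cd74 lie between -2.51 and -2.17 and those of H2-T23 between -3.18 and -2.37, while the H2-Aa points lie on both sides of 0 and all 6 B2m points are above it.

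Class I genes were lower as well, by up to 7.09-fold, with their light chain the other way. Of 20 genes of the non-classical list, 10 were called lower and 1 higher (median ratio -0.93), against 6.34% and 3.47% of all genes. H2-T23, which encodes Qa-1, the class I molecule that presents leader peptides to NK receptors, had ratios from -3.18 to -2.37 (median -2.85) and a mean of -2.83 ± 0.32 (adjusted p = 2.55e-18). H2-D1, a classical class I heavy chain, ran from -3.0 to -1.97 with a mean of -2.54 ± 0.39 (adjusted p = 6.40e-17). H2-M2 (mean -2.44 ± 0.35), H2-Q7 (-2.24 ± 0.41) and H2-T-ps, annotated as a pseudogene (-2.47 ± 0.31), were low on every array too. The highest ratio of any of these 5 genes on any array was -1.65, for H2-Q7. H2-K1, the other classical heavy chain, was lower by less (mean -0.75 ± 0.41, below the size limit) and was saturated in the NOD channel on 1 array. B2m, the light chain that all class I molecules share, had a mean of 0.36 ± 0.11 with its brighter probe and 0.86 ± 0.23 with the other, above 0 on all 6 arrays and below the size limit. H2-T3 was the member called higher. In the control channel it did not rise well above background, and the NOD signal, above background on 5, was at least 2.31-fold higher, where a bound sets the bright channel against the lowest signal well above background. H2-T3, H2-Q2 (-1.81 ± 0.68) and H2-Bl (-1.07 ± 0.36) lost their calls with normexp and loess, and H2-Bl also without replicate 6 (-0.97). H2-Q1 had probes called both ways, with means of -2.03 ± 0.29 and -1.38 ± 0.33 for 2 probes and 1.11 ± 0.58 for the dimmest. Class I genes share long stretches of sequence and the probe sequences were not used here, so a ratio may belong to more than the gene the probe is named for.

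Part of the machinery that feeds class I was lower too. Of 12 peptide loading and immunoproteasome genes, 5 were called lower, against 6.34% of all genes, and none higher (median -0.41). These were Tap1 (-1.22 ± 0.52) and Tap2 (-1.39 ± 0.71), which carry peptides into the endoplasmic reticulum, Tapbp, the bridge to class I (-1.37 ± 0.24), the proteasome activator Psme1 (-1.22 ± 0.25) and the chaperone Calr (-1.02 ± 0.26). Tap1 and Calr lost their calls with normexp and loess, and Calr also without replicate 5 (-0.99) or 6 (-0.95) and with the replicate block (-0.97).

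The low ratios were not limited to antigen presentation genes of this region. Between H2-K1 and H2-M2 in gene order lay 90 measured genes, of which 39 were called lower (43.3%) and 2 higher, with a median ratio of -0.82. Without the genes of the class I and class II lists 70 remained, of which 23 were called lower (32.9%) and 2 higher (median -0.58). Genes outside these lists, such as Tap1, Tap2 and H2-T-ps, were not taken out for this count. On the rest of chromosome 17, 48 of 413 measured genes were lower (11.6%) and 11 higher (median -0.19), near the 9.23% of all measured genes. The lowest mean in the interval was that of D17H6S56E-5, an MHC region transcript, with ratios from -4.74 to -2.84 and a mean of -3.56 ± 0.75 (adjusted p = 1.40e-15). Other class III genes called lower were Vars, the valyl-tRNA synthetase (-2.81 ± 0.80), and Abhd16a, a lipid hydrolase gene (-2.10 ± 0.36). The 2 genes called higher were Ubd, a ubiquitin-like modifier (1.24 ± 0.34), and Fkbpl, named after its values were seen. Of 38 genes of the class III and complement list 11 were lower and 1 higher, and 6 were lower after normexp and loess. For the 90 interval genes the median of the mean ratio over the other 5 ages was -0.027.

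**Figure D2:**
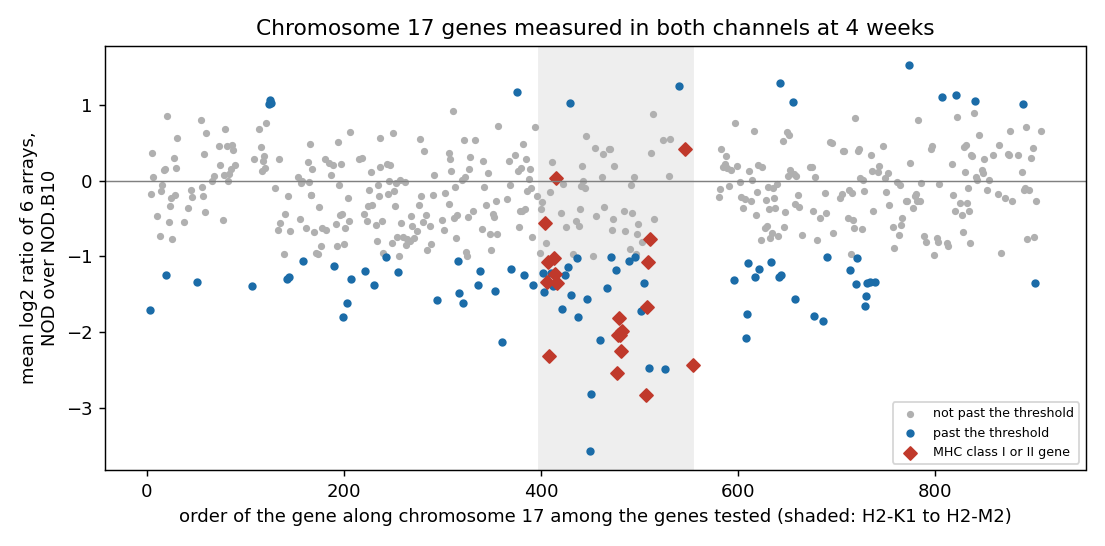
Mean log2 ratio over the 6 arrays at 4 weeks (y axis) of the chromosome 17 genes measured in both channels, in their order along the chromosome (x axis, a count of genes). In the shaded stretch from H2-K1 to H2-M2, 39 of 90 genes are called lower, against 48 of 413 outside it.

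Of measured genes with a symbol, 302 were called higher with the same sign on all 6 arrays, and the highest lay outside the MHC. Rmrp, the RNA component of the RNase MRP complex that processes ribosomal RNA, had ratios from 1.94 to 4.40 (median 4.03). Replicate 5 was the lowest and the other arrays lay at or above 3.22, giving a mean of 3.66 ± 0.95, a 12.7-fold higher signal in NOD (adjusted p = 6.48e-11). Hmgn5, a nucleosome-binding protein, had a mean of 2.27 ± 0.38 and Lars, the leucyl-tRNA synthetase, one of 2.27 ± 0.80. Tra2b, a splicing regulator, lay between 1.86 and 2.20 on all 6 arrays (mean 2.03 ± 0.12, adjusted p = 8.37e-13). Fam98b, a subunit of the tRNA ligase complex (2.14 ± 0.23), Esf1, a nucleolar ribosome assembly factor (2.09 ± 0.20), Casp4, an inflammatory caspase (1.82 ± 0.24), and Rtp4, an interferon-induced gene (1.90 ± 0.50), were further members of the 15 highest. Wfdc21 (2.04 ± 1.36) varied more, from 0.18 on replicate 1 to 4.10 on replicate 3. Ccdc25, Pigbos1, Pfdn1, 5330421C15Rik, Zc3h6 and Rhou completed the 15, with means of 1.82 to 1.97, and the last pair lost its calls with normexp and loess.

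The lowest ratios outside the MHC came from genes of varied function, and 900 measured genes with a symbol were called lower with the same sign on all 6 arrays. Sbno2, a transcriptional co-regulator, had ratios from -3.99 to -1.66 and a mean of -2.61 ± 0.81 (adjusted p = 9.23e-13). Per1, a core clock gene, ran from -2.61 to -2.22 (mean -2.42 ± 0.16, adjusted p = 4.06e-10), so that all 6 arrays agreed within 0.39. Emilin1, an extracellular matrix glycoprotein (-2.41 ± 0.31), was as low, and so were Gm500 (-2.37 ± 1.07) and Tmcc2 (-2.38 ± 0.98), of which Tmcc2 lost its call with normexp and loess. Dusp8, a MAP kinase phosphatase, was lower still at -4.53 ± 1.71 with ratios from -6.41 to -1.63. Its NOD signal was well above background on 5 arrays, and with normexp and loess it stood at -2.44.

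Some genes were seen in 1 channel only. For 585 called genes the control signal was well above background on no 4-week array, and 119 of those with a symbol were above background in the NOD channel on all 6 arrays. The highest bounds were those of Rbm46os, at least 2.90-fold higher in NOD, Saa3, an acute-phase serum amyloid (2.81-fold), Nalcn, a sodium leak channel (2.75-fold), and Pik3c2g, a lipid kinase (2.59-fold). None of the 10 genes with the highest bounds kept its call with normexp and loess. In the other direction no called gene had a control signal above background on all 6 arrays and a NOD signal above it on none.

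Erythroid genes were lower in the NOD channel, and by very different amounts on the 6 arrays. Of 21 genes, 15 were called lower and none higher (median -1.5), where 6.34% of all genes were called lower. Klf1, the master activator of red cell genes, had ratios from -4.13 to -1.28 (mean -2.57 ± 1.23, adjusted p = 2.97e-07). Trim10, expressed in erythroid cells and located in the MHC interval, had a mean of -2.49 ± 1.20, the red cell antigen Kel -2.15 ± 1.06, Hemgn -2.01 ± 1.44 and carbonic anhydrase Car2 -1.96 ± 1.39. Averaged over the list, replicates 5 and 6 stood at -3.0 and -2.69 and the other 4 between -1.20 and -0.53. Without replicates 5 and 6, a choice made after seeing the data, 11 members were lower (median -1.07), and with normexp and loess 10. In bulk tissue fewer cells of a type and less RNA per cell cannot be told apart. The control channel of these arrays carried erythroid genes at a mean log2 signal of 11.5 to 12.4 and the NOD channel at 9.3 to 11.8. Low erythroid ratios were not particular to 4 weeks. The list mean was -1.52 at 4 weeks, -0.86 at 10 days, -2.02 at 12 weeks and -1.61 at 16 weeks. At 8 and 20 weeks it was 0.20 and 0.98, and single arrays of the other ages ran from -2.86 to 2.38.

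Of 53 cell cycle genes, 12 were called lower and none higher (median -0.72), against 6.34% lower over all genes, among them Cdc25b, the phosphatase that opens mitosis (-1.47 ± 0.32), Uhrf1, which maintains DNA methylation at replication (-1.66 ± 0.54), Ccnf (-2.51 ± 0.61, above background in NOD on 5 arrays) and the mitotic kinase Cdk1 (-1.38 ± 0.78). The mean of the list was -1.40 and -1.22 on replicates 5 and 6 and between -0.68 and -0.16 on the others. Without those 2 arrays 5 of 53 members were lower, near the share of all genes in that setting (2112 of 28497), and with normexp and loess 6, when Cdk1 lost its call. The cell cycle and erythroid lists were low on the same arrays, and the part of red cell precursors in the cell cycle ratios was not tested.

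Neutrophil genes went the other way. Of 19 genes, 6 were called higher and 1 lower (median 0.57), where 3.47% of all genes were called higher. S100a9, a calcium-binding protein of neutrophils, had ratios from -0.28 to 3.35 (mean 1.78 ± 1.25, adjusted p = 0.000159), its partner S100a8 a mean of 1.65 ± 1.41 and Chil3, a chitinase-like protein, one of 2.04 ± 1.39. For all 3, replicate 1 was below 0 and the other arrays above it, with replicate 3 the highest. Camp, an antimicrobial peptide precursor (1.18 ± 1.29), lost its call without replicate 2 (adjusted p = 0.051), 3 (0.13) or 6 (0.068), over a range of adjusted p with each array left out that reached 0.13. Cxcr2, the chemokine receptor of neutrophils (1.5 ± 0.72), lost its call with normexp and loess, where 4 members were higher and none lower.

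Exocrine pancreas was present in both channels, and its level in the NOD channel split the arrays. Of 38 acinar genes 18 were saturated on some array, and the list had a mean log2 signal of 14.5 to 15.3 in the control channel and 9.2 to 17.5 in the NOD channel. The mean ratio of the list was 1.14, 2.68, 2.31 and 1.92 on replicates 1, 2, 4 and 6, and -3.42 and -6.12 on replicates 3 and 5. With this split 1 gene was called, Reg3g, a secreted lectin of the acinar cell (3.14 ± 3.05), where 3.47% of all genes were called higher. Replicates 3 and 5 were left out by a choice made after seeing the data, as the arrays low on this list. Higher ratios without them follow from that choice, for Ins2 and the islet genes below too. Without replicates 3 and 5 the calls rose to 13 of 38, all higher, with a median of 1.90 in place of -0.52. Over all 28497 genes the higher calls rose from 989 to 1458 in that setting. Without replicate 3 alone 3 were called and without replicate 5 alone 4, where 3170 and 3279 of all 28497 genes were called. Ins2, the main insulin gene, followed the same split, at 3.75, 3.68, 3.58 and 4.50 on replicates 1, 2, 4 and 6 against -1.03 and -2.52 on 3 and 5, and Ins1 did likewise (-1.59 to 3.23). Neither passed, at adjusted p = 0.0558 and 0.0605. Ins2 passed with normexp and loess (mean 1.84), with the filter on both channels (1.99), with the replicate block (2.22) and without replicate 3 (2.60), replicate 5 (2.90) or both (3.88). Of 36 islet genes 23 had no control signal well above background on any array, with 3 called higher and 2 lower, against 3.47% and 6.34% of all genes. All 5 of these calls, Gcg, Ppy, Pyy, Slc2a2 and Gad2, were lost with normexp and loess. That count of 3 became 1 without replicate 2, 6 without replicate 3, 7 without replicate 5 and 8 without both 3 and 5. Over all genes the higher calls in these settings were 936, 1191, 1188 and 1458, against 989 with all 6 arrays.

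Deaf1 belongs beside these genes. It encodes a transcription factor that controls tissue antigens in lymph node stroma, and its brightest probe had ratios of 1.42, 4.40, 3.38 and 2.30 on replicates 1, 2, 4 and 6 and -0.77 and -2.16 on 3 and 5, with a mean of 1.43 ± 2.5 (adjusted p = 0.13). The acinar list put the 6 arrays in the same order. A second Deaf1 probe was low on all 6 arrays (-1.07 ± 0.29) and the remaining one was well above background in the control channel on none, so the probes of this gene disagree in sign. The part of pancreatic RNA in the first probe's signal was not tested. Aire, the thymic regulator of tissue antigens, lay between -1.62 and -0.03 (mean -0.70 ± 0.66) and did not reach the size limit.

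**Figure D3:**
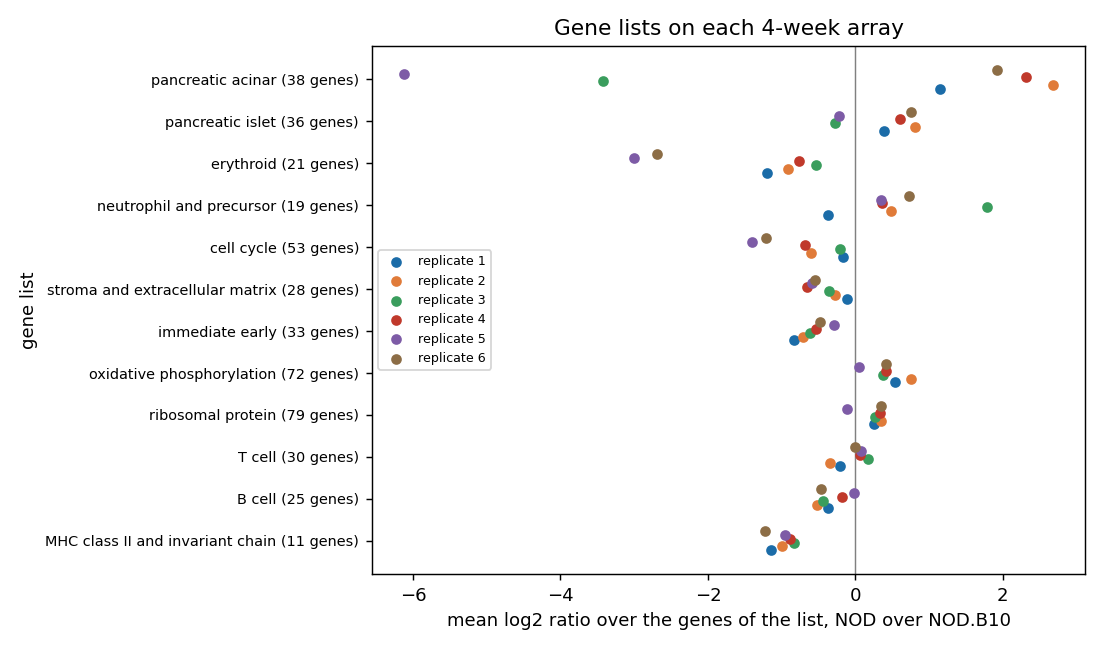
Mean log2 ratio (NOD over NOD.B10, x axis) over the genes of 12 lists on each of the 6 arrays at 4 weeks, where each point is 1 array. Replicates 3 and 5 lie at -3.42 and -6.12 for acinar genes with the other 4 above 0, replicates 5 and 6 lie lowest for erythroid genes, and the class II points stay together.

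Lymphocyte markers are read against the 3.47% of all genes called higher and 6.34% called lower. Of 30 T cell genes 1 was called higher (Cd7) and 1 lower (Satb1), with a median of -0.078, and both calls were lost with normexp and loess, and of 11 regulatory T cell genes none was called by limma. Foxp3, their defining factor, was above background on 4 arrays in the NOD channel and 1 in the control channel (mean -0.35 ± 0.86). Among 25 B cell genes 4 were lower and 2 higher. Fcmr, the IgM receptor, was lower on every array (-1.83 to -1.05, mean -1.59 ± 0.28), as was the inhibitory receptor Cd22 (-1.35 ± 0.47), while Vpreb3 (1.21 ± 0.27) and Tnfrsf13c, the BAFF receptor (1.14 ± 0.22), were higher. Blk, a B cell kinase, stood at -2.68 ± 1.14 with NOD signal above background on 3 arrays, and lost its call with normexp and loess, as did Spib. Of 23 macrophage and monocyte genes 4 were lower, including the growth factor receptor Csf1r (-1.54 ± 0.23) and the complement chain C1qa (-1.37 ± 0.17), and the calls of the other two, Siglec1 and Cd5l, were lost with normexp and loess. Ifng, the T cell interferon, was higher (0.71 to 1.47, mean 1.15 ± 0.29, adjusted p = 5.09e-05), with control signal above background on 4 arrays, and lost its call with normexp and loess. A second Ifng probe, with control signal above background on 2 arrays, ran from -0.64 to 1.08 with a mean of 0.37 ± 0.61 and did not pass. Tgfb1, which restrains T cells, was lower (-1.45 ± 0.50) and lost its call there too. Ctla4, a brake on T cell activation (mean 0.60 ± 0.60), had no control signal well above background. The growth factor Il2 had means of 0.56 ± 0.84 and -0.20 ± 0.47 with its 2 probes, with control signal above background on 0 and 1 arrays, and neither passed.

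Interferon response genes are read against the same shares of all genes (3.47% higher, 6.34% lower). Of 37 type I response genes 3 were called higher, Rtp4, Ifit1 (1.56 ± 1.18) and Ifit3 (1.14 ± 0.71), and 1 lower, with a list median of 0.22. Ifit1 and Ifit3 lost their calls with normexp and loess (0.71 and 0.81) and without replicates 3 and 5, and Ifit3 also without replicate 3 (0.96) or 5 (0.98). Among 27 interferon gamma response genes the guanylate-binding protein Gbp5 (1.47 ± 0.37), the GTPase Iigp1 (1.09 ± 0.34) and the chemokine Cxcl10 (1.48 ± 0.66) were higher, while the transcription factor Irf8 (-1.31 ± 0.37) and Gch1 (-1.04 ± 0.61) were lower. Iigp1 and Gch1 lost their calls with normexp and loess (0.92 and -0.67) and without replicate 6 (0.99 and -0.92), and Gch1 also without replicate 1 (-0.99) or 5 (-0.89).

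Among signalling lists 3 of 26 NF-kB genes, 3 of 38 antigen receptor genes and 3 of 33 Toll-like receptor genes were lower and none higher, where 6.34% of all genes were lower. Nfkb2 and Relb, subunits of the alternative NF-kB pathway, had means of -1.73 ± 0.19 and -1.29 ± 0.17. Irf5, a factor downstream of Toll-like receptors, stood at -1.49 ± 0.23, Syk, the kinase of the B cell receptor, at -1.29 ± 0.27 and the phosphatase Ptpn6 at -1.43 ± 0.30. Of 33 immediate early genes, induced within minutes of a stimulus or of handling, 8 were lower and none higher, Nr4a1 at -1.37 ± 0.43 and Dusp1 at -1.20 ± 0.42, and 4 were lower with normexp and loess, when Dusp1 lost its call. Of 19 clock genes 3 were lower and 1 higher, with Per1 and its output factor Dbp (-1.63 ± 0.31) low on every array and Cry2 (-1.18 ± 0.59) losing its call with normexp and loess. The labels do not state the hour at which tissue was taken. Of 22 chaperone genes 6 were lower, led by Hsp90ab1, a cytosolic chaperone (-2.59 to -1.51, mean -2.07 ± 0.41), with Fkbp4, its co-chaperone, at -1.44 ± 0.41, and 2 were lower with normexp and loess. Heat shock genes of the class III region are among the 6 and were counted in that list too.

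Part of the genes of mitochondrial respiration and of the ribosome were called higher, against 3.47% of all genes. Of 72 oxidative phosphorylation genes 14 were called higher and 1 lower (median 0.39), all 72 measured in both channels, and normexp with loess gave the same counts. Cox7a2, a subunit of cytochrome oxidase, had ratios from 0.64 to 2.07 (mean 1.55 ± 0.51, adjusted p = 6.66e-09), and Ndufb3, a complex I subunit, a mean of 1.49 ± 0.42. Of 79 ribosomal protein genes 8 were higher and 1 lower (median 0.12), with 26 saturated on some array. Rps26 (1.62 ± 0.23), Rpl37 (1.59 ± 0.23) and Rpl31 (1.53 ± 0.39) led, and Rpl28 (-1.14 ± 0.25) was the gene called lower. Replicate 5 was lowest for both lists, at a mean of 0.05 for oxidative phosphorylation and -0.12 for ribosomal proteins.

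Of 28 stroma and matrix genes 5 were called lower and none higher, where 6.34% of all genes were called lower. Among the 5 were fibronectin Fn1 (-1.90 ± 0.43), smooth muscle actin Acta2 (-1.74 ± 0.24) and the collagen Col6a1 (-1.94 ± 0.37). Col6a1 lost its call with normexp and loess, as did Col6a2. Madcam1, the addressin of venules in mucosal nodes, was lower too (-1.39 ± 0.28) and lost its call there.

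These ratios were then set against those of the other 5 ages. The ratio at 4 weeks differed from the mean of the other ages for 4417 genes (15.5%), 2184 higher (7.66%) and 2233 lower (7.84%), and for 1621 genes (5.69%) the 6 values did not overlap the other 29. Of the 2796 genes called against 0 at 4 weeks, 2307 also differed from the other ages and 1751 (62.6%) had a mean of opposite sign there. The same sign with a mean of at least 1 at the other ages was seen for 14, with D17H6S56E-5 (mean over the other ages -3.80), H2-T3 (1.71), H2-DMb1 (-1.04) and H2-T23 (-1.02) among them. For Cd74 the mean over the other ages was 0.87 against -2.32 at 4 weeks, for Per1 0.53 against -2.42, for Coro1a, an actin-binding protein of lymphocytes, 0.82 against -2.29 and for Il2rg, the common cytokine receptor chain, 0.74 against -2.0. Mta2, a subunit of a chromatin remodelling complex, lay between -2.23 and -2.07 on the 6 arrays and between -0.15 and 2.54 on the other 29.

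Reading each channel alone, after quantile normalization across the arrays, gave more calls in the control channel. There 3422 genes (12.0%) differed between the 4-week arrays and the other ages, 1515 higher (5.32%) and 1907 lower (6.69%). In the NOD channel 1288 (4.52%) differed, 578 higher (2.03%) and 710 lower (2.49%). With each array scaled to its 75th percentile instead, the split was 1459 higher and 3060 lower in the control channel, where the median over all genes moved from -0.030 to -0.20, and 411 and 1358 in the NOD channel. Of the 4417 genes whose ratio differed, 1998 (45.2%) passed in the control channel the opposite way, 459 (10.4%) in the NOD channel the same way, 37 in both and 1997 in neither. Among the 20 genes with the largest differences by the rule used to name them, the control channel moved more than the NOD channel in 19. For Cd74 the control signal was higher by 2.20 and the NOD signal lower by 1.02 than at the other ages, for H2-D1 the differences were 1.60 and -0.66, for Klf1 2.19 and 0.42 and for Cox7a2 -1.37 and 0.98. Rmrp was the exception. Its NOD signal was 4.28 above that of the other ages (limma adjusted p = 4.5e-08) and its control signal 0.12. Rtp4 was like it, at 1.83 in the NOD channel and -0.18 in the control channel.

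The counts of single lists in each channel are read against the shares of all genes. These were 2.03% higher and 2.49% lower in the NOD channel, and 5.32% higher and 6.69% lower in the control channel. A single gene called in a list is not read as a result. Of the class II list 5 of 11 genes were higher in the control channel at 4 weeks than at the other ages and 1 was lower in the NOD channel, and of the non-classical class I list 7 of 20 were higher in the control channel and none passed in the NOD channel. With arrays scaled to the 75th percentile, 5 class II genes were higher in the control channel. In that setting none of the class II list, Cd74 among them, passed in the NOD channel. Of 72 oxidative phosphorylation genes 17 were lower in the control channel and none passed in the NOD channel, and of 21 erythroid genes 10 were higher in the control channel and none passed in the NOD channel. By the 75th percentile 14 oxidative phosphorylation genes were lower in the control channel and 1 higher in the NOD channel. Of 38 acinar genes 20 were lower in the control channel and 4 higher in the NOD channel, and of 36 islet genes 17 were lower and 1 higher in the control channel and 1 lower in the NOD channel. Scaled to the 75th percentile, 24 acinar genes were lower in the control channel and 3 higher in the NOD channel. The islet counts then were 19 lower and 1 higher in the control channel and 3 lower in the NOD channel. Of 33 immediate early genes 6 were lower in the NOD channel, with 5 higher and 1 lower in the control channel. Of 37 type I interferon genes 7 were higher and 1 lower in the NOD channel, with 5 higher in the control channel. Neutrophil genes had 4 of 19 higher in the NOD channel, with 2 higher and 4 lower in the control channel. Of 17 mast cell, basophil and eosinophil genes 3 were lower in the NOD channel and 1 higher in the control channel, and of 17 histone genes 3 were higher and 1 lower in the NOD channel and 2 lower in the control channel. Scan day differed between the 4-week arrays and the other ages, as did the scanner for all but 1 array and the Feature Extraction version for some. Which control RNA was on the 4-week arrays is not stated in the labels. The part of each in these differences was not tested.

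**Figure D4:**
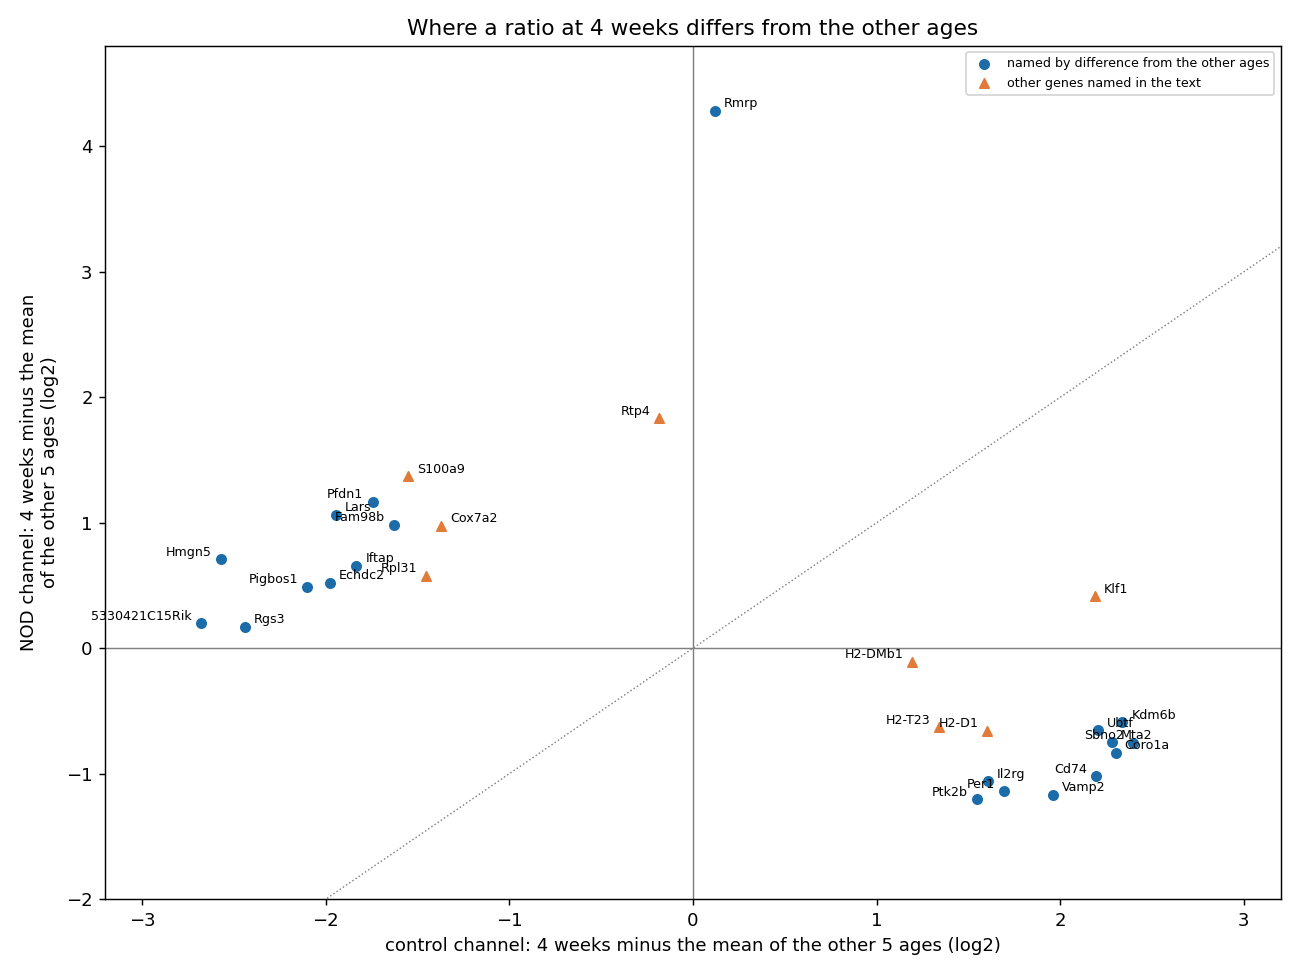
Difference of the quantile normalised log2 signal between 4 weeks and the mean of the other 5 ages in the control channel (x axis) and in the NOD channel (y axis), 1 point for each gene named in the plot, with a dotted line where both moved alike. Cd74 lies at 2.20 and -1.02, while Rmrp lies at 0.12 and 4.28 and Rtp4 at -0.18 and 1.83.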

How the data were processed

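Per the file headers, the authors' Agilent Feature Extraction files (8.5.1.1 on the 4-week arrays) hold background-subtracted, dye-normalised processed intensities of both channels, and raw mean and background intensities. The deposited log10 ratio is the scanner's with its sign turned. Here log2 Cy3 over Cy5 was taken per probe without control spots and outlier flags, keeping probes with at least 1 channel well above background on 4 or more arrays, and the brightest probe stood for each gene. Symbols were updated through RefSeq (GRCm38.p6). Group means were fitted over all 35 arrays with limma 3.58.1. On simulated data 95% of genes changed by 1.5 (log2) were recovered at 4 weeks. Named genes were the 15 highest and 15 lowest measured ratios, the 10 highest bounds, the 10 highest and 10 lowest differences from other ages, up to 6 called members per list, and chosen MHC, antigen and cytokine genes, the smallest left out for length. Members and lists were chosen with earlier results of these data known. Alternatives covered background correction, deposited values, centring, filters, probes, blocks, size limits, channel scaling and arrays left out. Some results are not reported here.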

Additional observations from a re-analysis of the deposited data

Results flagged for a closer look

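Of 127 genes and lists looked at, 6 had 1 array far from the other 5. Chance gives such a gap in about 1 of 20 independent groups, so the number is near what chance would give for independent items. These items were read on the same 6 arrays and are not independent, so the number alone cannot decide this. In 5 of the 6 the array was replicate 5. Hmgn5 had a log2 ratio of 1.53 on replicate 5 against 2.21 to 2.54 on the others. Gm500 stood at -4.45 there against -2.45 to -1.43, and Olfr221 at 0.54 against 1.54 to 2.13, but the control signal of Olfr221 was not well above background on these arrays, so its ratios are not exact. The mean of the circadian clock genes was -0.16 on replicate 5 against -0.59 to -0.48, and that of the ribosomal protein genes -0.12 against 0.25 to 0.35. The mean of the NK and cytotoxic genes was 0.46 on replicate 3 against -0.19 to 0.04.

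The log2 ratio differed between 4 weeks and the mean of the other 5 ages, by the test of that difference (limma), for 20 named genes whose values at 4 weeks did not overlap the other 29 arrays. The differences of the 10 higher genes were Rmrp 4.25, Hmgn5 3.35, Lars 3.09, Pfdn1 2.95, 5330421C15Rik 2.93, Fam98b 2.69, Rgs3 2.67, Pigbos1 2.63, Echdc2 2.53, Iftap 2.52. Those of the 10 lower genes were Sbno2 -3.26, Vamp2 -3.23, Cd74 -3.2, Mta2 -3.12, Coro1a -3.11, Kdm6b -3.04, Per1 -2.95, Ptk2b -2.89, Ubtf -2.86, Il2rg -2.75. The other ages were read on other days than the 4-week arrays.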

How the results depend on the processing

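Counts of called genes are given for the 4-week ratio against 0 (2796) and against the other ages (4417). Normexp with loess gave 534 and 1200, requiring both channels above background on all 6 arrays 1500 and 2651, a size limit of 0.5 gave 9498 and 10815, and none 12063 and 12594. The scanner as a block gave 1840 against 0. The cause was not tested, beyond the fewer genes tested under the filter and the limits themselves. Leaving out each array gave 2659 to 3279 and 4263 to 4853, and in the NOD channel 976 to 1419 and the control channel 3266 to 3628. Of the calls in the NOD channel 44.9% were higher, and 23.2% when scaled to the 75th percentile. For the control channel these shares were 44.3% and 32.3%. By its brightest probe, no named gene that was called changed sign with normexp and loess, the deposited values, centring, the filters, the replicate block or arrays left out, and single genes were not refitted under the other settings.

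Same-numbered arrays of different ages did not deviate together (r from -0.27 to 0.14 over 77 pairs), so the numbers were not used as pairs. A pairing that leaves no shared deviation cannot be seen in this way. With the replicate block the counts were 2733 against 0, 4371 against the other ages, 1393 in the NOD channel and 3432 in the control channel.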

Other observations

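Over all genes 3.47% were called higher and 6.34% lower. Of 41 splicing and RNA-binding genes 7 were called lower and 2 higher (median -0.15). Srrt, a factor of small RNA processing, stood at -2.74 ± 0.80 (SD, n = 6, above background in NOD on 5 arrays), Hnrnpl, a splicing repressor, at -1.80 ± 0.42, and Prpf8, the core protein of the spliceosome, at -1.5 ± 0.18 with ratios from -1.76 to -1.33. Snrpe, a small nuclear ribonucleoprotein, was higher (1.26 ± 0.26) and lost its call with normexp and loess. Of 25 cholesterol and fatty acid synthesis genes 4 were lower and none higher, including Fasn, the fatty acid synthase (-1.42 ± 0.41), and Scd1 (-1.07), which lost its call with normexp and loess (-0.94).

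Of 17 histone genes 4 were called higher and 2 lower. H2ac4 had ratios from 0.21 on replicate 5 to 3.46 (mean 2.60 ± 1.25). H1f4 ran from -0.92 on replicate 5 to 2.21 (1.06 ± 1.18) and lost its call without replicate 1 (0.96), 2 (0.84) or 3 (0.83). Among 20 genes of NK and cytotoxic cells none was called (limma).

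Calls among measured genes differed with signal. Of the 2851 dimmest, 13.4% were lower and 1.61% higher, and of the 2851 brightest, 6.80% and 4.67%.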
